A study of Homo sapiens with 12 samples.

Results

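The aryl hydrocarbon receptor pathway was followed in HK-2 cells, an immortalised human line derived from proximal tubule epithelium, after exposure to 2,8-dihydroxyadenine (DHA). Its 7 genes were chosen by name from the 57527 genes that had at least 1 matched transcript: the receptor AHR, its partner ARNT, the repressor AHRR, the target enzymes CYP1A1 and CYP1B1, the target and repressor TIPARP, and the transcription factor NFIL3. Of these, 5 were among the 16789 genes tested, which reached a normalized signal of 1 in at least 3 libraries. AHRR and CYP1A1 did not reach that level. The members were chosen with earlier results of these data known, so their counts beside all genes are descriptions only.

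RNA-seq libraries of polyadenylated RNA were made from 4 groups with 3 libraries each, 12 in all. Every group was kept for 72 h in the same serum-containing medium. The control group received medium alone, and the treated groups received 60, 120 or 240 ug/ml DHA suspended in that medium, with no other agent named. DHA is a poorly soluble purine that crystallises in the kidney in adenine phosphoribosyltransferase deficiency. HK-2 is a single established line, and the sources do not state if libraries of the same group were grown as separate cultures. The p-values therefore measure the spread between these libraries only, which may be technical.

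The receptor is a basic helix-loop-helix PAS transcription factor, held in the cytoplasm by chaperones that include HSP90 and its co-chaperone p23. Once a ligand binds, it moves to the nucleus, pairs with ARNT and binds DNA at xenobiotic response elements, which switches on CYP1A1, CYP1B1, AHRR and TIPARP. AHRR, which competes for ARNT, and TIPARP, a mono-ADP-ribosyltransferase that modifies the receptor, both limit the response. In kidney tubule cells, tryptophan-derived uraemic solutes such as indoxyl sulfate are known ligands.

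Of the 4 targets named above, CYP1B1 and TIPARP could be tested, and CYP1A1 and AHRR were below the test's minimum. CYP1B1, which oxidises polycyclic hydrocarbons and oestrogens, fell at every dose, to 0.455 times control at 240 ug/ml (limma, adjusted p = 1.39e-05). As deposited, ARNT fell at 120 and 240 ug/ml and TIPARP at all 3 doses; at equal library totals neither was called, and TIPARP turned to 0.19 at 240 ug/ml. NFIL3 fell at 60 ug/ml as deposited and rose at 240 ug/ml, to 1.17 times control. CYP1A1, the enzyme most often used to report receptor activity, was listed at 0 to 0.3 in all libraries. AHR itself passed the test at no dose.

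The values are the deposited normalized abundances, summed over the transcripts of each gene and called normalized signal here. No source used here names their unit. Their totals are of the size that TPM values divided by a size factor would give, and such values are per transcript length. Library totals were not equal: they ran from 1143850 to 1228979 in controls. With rising dose the ranges were 984048 to 1060084, 875886 to 962259 and 791808 to 969479. Under a rescaling to equal totals the median change of all tested genes against control moved from -0.028, -0.033 and -0.028 to 0.13, 0.27 and 0.34 on the log2 scale at the 3 doses. Changes are given on the deposited scale, with values or counts at equal totals beside them where a call is lost or turned. Read depth is unknown, so no counting interval was given. The third 60 ug/ml library stood apart: without it, the genes called between 120 and 60 ug/ml went from 90 higher and 270 lower to 1042 and 1313.

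The labelled cell type was checked against its markers. Of 11 proximal tubule markers, 4 had a mean of at least 1 (among them PAX8, GGT1 and SLC5A2), while LRP2 and SLC22A6 were listed at 0 in all libraries. Of 5 epithelial markers, 4 did so. Endothelial and leukocyte markers summed to at most 0.4 and 0.8. Fibroblast markers were present, with 3 of 5 at a mean of at least 1 (LUM, DCN and COL1A1), COL1A2 listed at 0 throughout, and sums of 246.9 to 342.3 in controls against 38.6 to 65.9 at 240 ug/ml.

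The DNA element read by the receptor and ARNT has the core GCGTG, and the promoters of 4 members are shown because they hold it. They are RefSeq sequences of GRCh38.p14, from 250 bases before to 50 bases after the start site, 5′ to 3′ on the gene's own strand. Both strands were searched, and capitals mark the core, which reads CACGC where it lies on the other strand. The CYP1A1 window is chr15:74725479-74725778 (minus strand), with the core at -57 to -53 from the start. The AHRR window is chr5:321464-321763 (plus strand), the first of 2 listed for that gene, with the core at -30 to -26. The TIPARP window is chr3:156674340-156674639 (plus strand), the first of 3, with cores at -208 to -204 and -142 to -138 on the other strand. The NFIL3 window is chr9:91424577-91424876 (minus strand), the first of 2, with cores at -87 to -83 and 25 to 29.
CYP1A1: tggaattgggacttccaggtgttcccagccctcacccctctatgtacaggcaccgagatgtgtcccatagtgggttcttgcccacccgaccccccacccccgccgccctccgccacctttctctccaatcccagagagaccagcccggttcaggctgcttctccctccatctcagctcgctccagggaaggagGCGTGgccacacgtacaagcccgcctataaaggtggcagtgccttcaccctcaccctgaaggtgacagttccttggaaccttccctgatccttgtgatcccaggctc
AHRR: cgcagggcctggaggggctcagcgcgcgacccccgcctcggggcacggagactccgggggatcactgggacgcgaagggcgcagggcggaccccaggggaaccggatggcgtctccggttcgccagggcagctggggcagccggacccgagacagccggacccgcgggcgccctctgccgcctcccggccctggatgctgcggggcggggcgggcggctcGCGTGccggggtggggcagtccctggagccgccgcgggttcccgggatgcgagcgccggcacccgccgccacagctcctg
TIPARP: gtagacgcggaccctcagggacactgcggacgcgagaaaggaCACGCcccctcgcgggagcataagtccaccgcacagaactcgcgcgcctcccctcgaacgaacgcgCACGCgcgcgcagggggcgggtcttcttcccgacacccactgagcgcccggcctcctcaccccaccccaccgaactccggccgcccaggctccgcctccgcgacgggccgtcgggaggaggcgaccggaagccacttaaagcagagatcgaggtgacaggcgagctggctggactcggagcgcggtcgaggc
NFIL3: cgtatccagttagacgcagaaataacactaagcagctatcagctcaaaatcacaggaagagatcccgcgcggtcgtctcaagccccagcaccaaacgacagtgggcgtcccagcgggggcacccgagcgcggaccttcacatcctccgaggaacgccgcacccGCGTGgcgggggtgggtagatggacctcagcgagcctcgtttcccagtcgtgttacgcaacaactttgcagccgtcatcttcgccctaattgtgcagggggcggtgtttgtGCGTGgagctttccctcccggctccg

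A core in such a window was common. Of 35116 promoters of the same length in the table, 36.5% held GCGTG on either strand, and 5.5% held the longer form TNGCGTG, in which the core is included. Among the windows listed for members, only the first AHRR window held the longer form, at -32 to -26. The AHR window, chr7:17298402-17298701, held 1 core, at 38 to 42, and the ARNT window held none. Of the 7 genes, 6 had a window in the table; the gene without one was CYP1B1. A match is a description of these letters and not a measured binding site.

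Across doses the members fell into different courses (the plot of levels by dose). With all 4 groups tested together, 4 of the 5 tested members differed (limma F test, adjusted p under 0.05), where 42.7% of all tested genes did. The members were not chosen independently of these data, so the 2 shares are not a test of the pathway. The member that did not pass was AHR (adjusted p = 0.262). At equal library totals the count was 2.

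**Figure D1:**
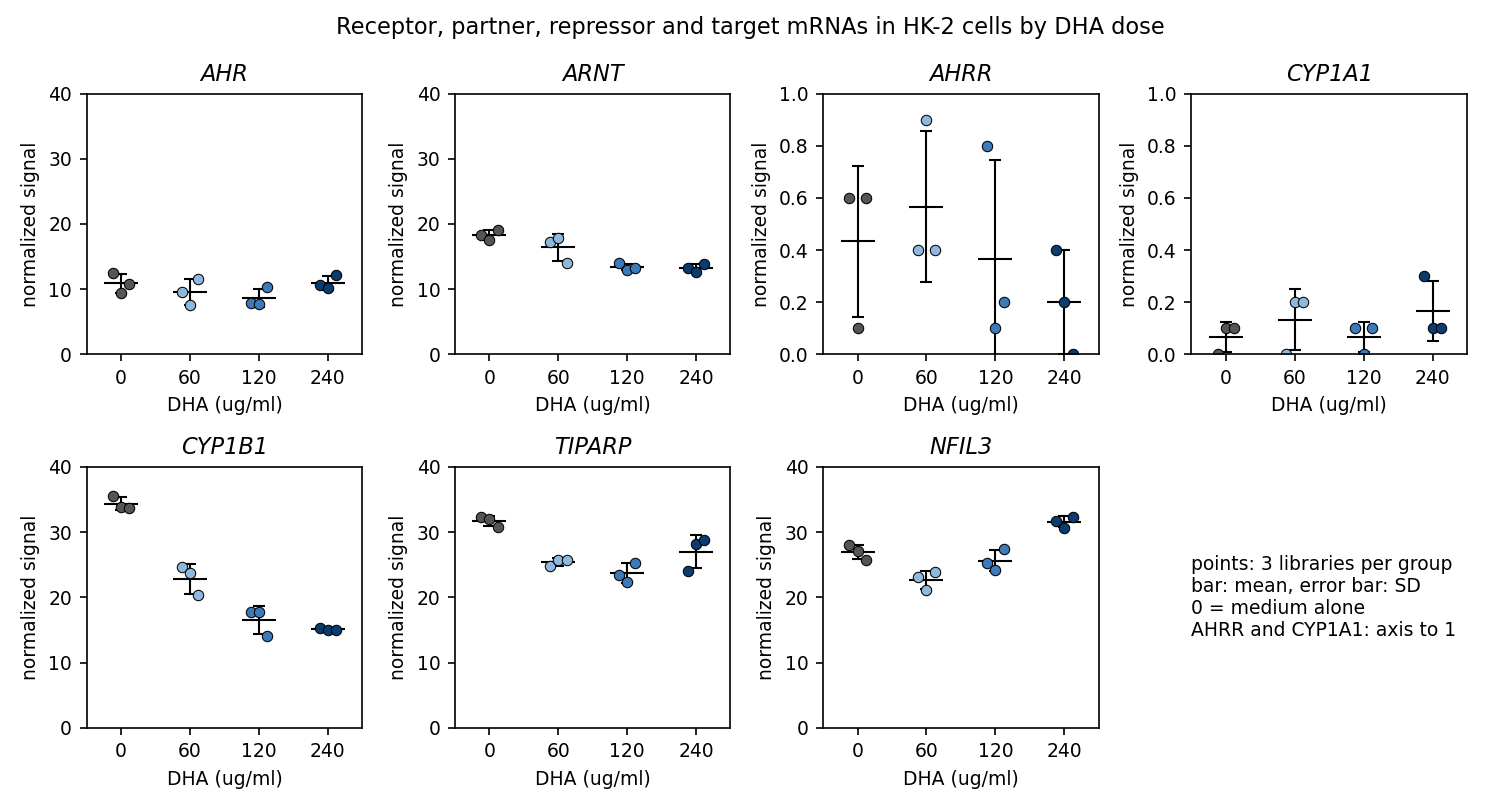
Normalized signal (vertical axis) of the 7 genes against DHA dose in ug/ml (horizontal axis), with 1 point per library and bars for the mean and SD of 3 libraries. CYP1B1 goes from 33.7 to 35.5 in controls down to 15 to 15.3 at 240 ug/ml, NFIL3 is lowest at 60 ug/ml, and AHRR and CYP1A1, on an axis that ends at 1, stay below 1 in every library.

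The receptor mRNA passed the test at no dose, which does not show that it was unchanged. AHR (ENSG00000106546.13, chromosome 7, 16916359 to 17346152, plus strand) read 12.4, 9.4 and 10.8 in controls. The 60 ug/ml libraries read 9.5, 7.6 and 11.6, the 120 ug/ml libraries 7.9, 7.7 and 10.3, and the 240 ug/ml libraries 10.6, 10.1 and 12.2. Every treated group overlapped the controls. The log2 changes of AHR against control were -0.18, -0.30 and 0.016 (SE 0.15 each) at 60, 120 and 240 ug/ml, with limma adjusted p of 0.477, 0.148 and 0.946. The value at 120 ug/ml passed the test once trends with GC content and transcript length were subtracted (-0.40, adjusted p = 0.0424). The value at 240 ug/ml did so at equal library totals (0.41, adjusted p = 0.0489).

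Its transcripts did not follow one course. AHR-201, the main protein-coding transcript, read 5.9, 5.7 and 7.9 in controls, and with rising dose 6.7, 6 and 8.4, then 7.3, 7.3 and 8.2, then 7.3, 9.7 and 9.8. AHR-205, annotated as a processed transcript without a coding sequence, read 4.5, 1.6 and 2.9 in controls, and with rising dose 1.8, 0.7 and 3.2, then 0.2, 0.4 and 1.9, then 3.3, 0.4 and 2.4. AHR-201 made up 47.6% to 73.1% of the gene's signal in controls. With rising dose its share was 70.5% to 78.9%, then 79.6% to 94.8%, then 68.9% to 96%, so that only the 120 ug/ml range lay apart from the controls. Neither transcript passed the test as deposited with all libraries: the log2 changes of AHR-201 were 0.10, 0.21 and 0.41 at the 3 doses (limma adjusted p = 0.8, 0.423 and 0.0927), and those of AHR-205 were -0.49, -1.17 and -0.48 (adjusted p = 0.664, 0.141 and 0.536). At 240 ug/ml AHR-201 passed it without the third control or the first treated library (adjusted p = 0.0458 and 0.0472) and at equal library totals (0.79, adjusted p = 0.011). Where only protein-coding transcripts were summed, AHR rose at 240 ug/ml (0.41, adjusted p = 0.03). That sum was nearly all AHR-201, since the other coding transcript, AHR-206, read at most 0.1. It is the change of AHR-201 adjusted over gene sums and not a separate result. AHR-201 shares 270 exonic bases with an antisense gene, ENSG00000237773, whose mean was 3.03 in controls and 1.47 at 240 ug/ml. The libraries were made with a dUTP protocol that marks strand, per the labels, but no source used here says if the quantification used strand.

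**Figure D2:**
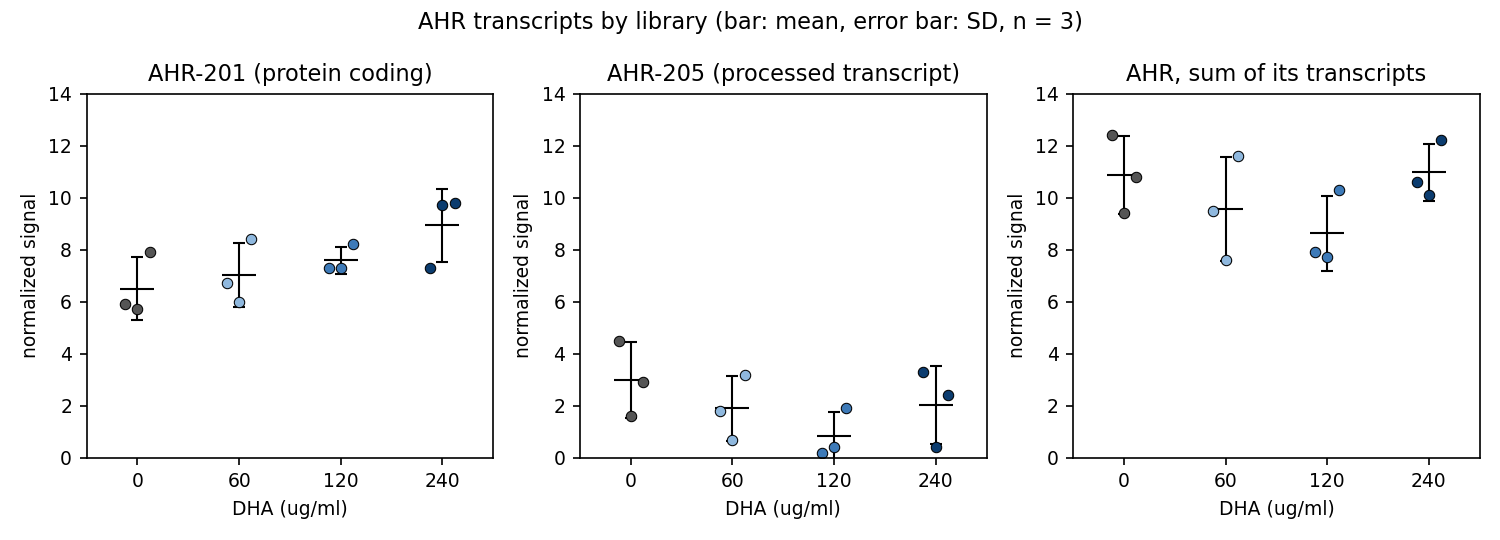
Normalized signal (vertical axis) of AHR-201, AHR-205 and the sum of all AHR transcripts against DHA dose in ug/ml, with 1 point per library and bars for the mean and SD of 3 libraries. AHR-201 has its highest readings, 9.7 and 9.8, at 240 ug/ml, AHR-205 its lowest, 0.2 and 0.4, at 120 ug/ml, and the sum overlaps the controls at every dose.

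The partner fell at the upper doses as deposited. ARNT (ENSG00000143437.20, chromosome 1, 150809705 to 150876768, minus strand), which also pairs with the hypoxia factors, read 18.3, 17.6 and 19.1 in controls. Libraries at 60 ug/ml read 17.3, 17.9 and 14, the 120 ug/ml libraries 14, 13 and 13.2, and the 240 ug/ml libraries 13.2, 12.6 and 13.9. All libraries at 120 and 240 ug/ml lay below all controls, while the 60 ug/ml group overlapped them and held 1 low library, the third. The log2 changes were -0.16, -0.42 and -0.44 (SE 0.092), with limma adjusted p of 0.265, 0.004 and 0.00254. At equal library totals both calls were lost, with changes of -0.079 and -0.034 (adjusted p = 0.56 and 0.801). The main coding transcript ARNT-202 changed by -0.52 and -0.47 at the upper doses (adjusted p = 0.0193 and 0.0244), and by -0.18 and -0.067 at equal totals, where neither passed (adjusted p = 0.358 and 0.735). That transcript's call was also lost at 120 ug/ml without the second control, the third control or the third treated library, and at 240 ug/ml without any 1 control or either the second treated library or the third treated library (adjusted p from 0.0504 to 0.0765).

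The repressor AHRR was close to 0. AHRR (ENSG00000063438.16, chromosome 5, 304176 to 438291, plus strand) read 0.6, 0.1 and 0.6 in controls. Those at 60 ug/ml read 0.4, 0.9 and 0.4 and the 120 ug/ml libraries 0.8, 0.1 and 0.2. At the highest dose 1 library was listed at 0 and the others read 0.4 and 0.2. The groups overlapped in every comparison. Fitted without the filter on low values, over 34520 genes, its change at 240 ug/ml was -0.25 (SE 0.23, limma adjusted p = 0.515). AHRR shares 244 exonic bases on the same strand with PDCD6, which had a mean of 121 in controls, so its low readings are uncertain.

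TIPARP, a target of the receptor that also represses it, fell at every dose as deposited. It is encoded on chromosome 3 (ENSG00000163659.12, 156673235 to 156706770, plus strand). Controls read 32.3, 32 and 30.8. The 60 ug/ml libraries read 24.8, 25.7 and 25.8, the 120 ug/ml libraries 23.5, 22.3 and 25.3, and the 240 ug/ml libraries 24.1, 28.2 and 28.8. No treated library reached the lowest control. The log2 changes were -0.31, -0.41 and -0.23 (SE 0.079), with limma adjusted p of 0.0194, 0.00213 and 0.0369.

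The TIPARP call at 120 ug/ml was lost in 1 of 24 alternatives, equal library totals. Those at 60 and 240 ug/ml depended on scaling and on single libraries, and the call at 240 ug/ml also on settings of the fit. At equal library totals the changes were -0.11, -0.051 and 0.19 (adjusted p = 0.555, 0.746 and 0.173), so that the direction at 240 ug/ml turned. The call at 60 ug/ml was also lost without the first control, the second control or the first treated library (adjusted p = 0.0685, 0.0587 and 0.0666). The call at 240 ug/ml was also lost without any 1 of the 3 controls, without the first library at 120 ug/ml or without the first at 240 ug/ml (adjusted p = 0.101, 0.0914, 0.0548, 0.0512 and 0.14). It was lost as well with no filter on low values, no trend in the spread model or the 2 groups alone (limma adjusted p = 0.0542, 0.0532 and 0.0731). The coding transcript TIPARP-201 did not pass the test (log2 changes of -0.28, -0.33 and -0.27, adjusted p = 0.239, 0.094 and 0.139).

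The target enzymes differed in level. CYP1A1 (ENSG00000140465.13, chromosome 15, 74719542 to 74725610, minus strand), whose promoter is printed above, was listed at 0 in 1 library of each of the control, 60 and 120 ug/ml groups. The other readings were 0.1 and 0.1 in controls and, with rising dose, 0.2 and 0.2, then 0.1 and 0.1, then 0.3, 0.1 and 0.1. All groups overlapped. Fitted without the filter, its change at 240 ug/ml was 0.13 (SE 0.092, limma adjusted p = 0.419). A fall of this gene could not be detected at these levels, and a small rise could have been missed. No library read above 0.3, so no rise to the test's minimum of 1 was seen.

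CYP1B1 was the most abundant member in controls and the one that changed most. It is encoded on chromosome 2 (ENSG00000138061.11, 38066973 to 38109902, minus strand). Controls read 35.5, 33.9 and 33.7. The 60 ug/ml libraries read 24.6, 23.7 and 20.3, the 120 ug/ml libraries 17.8, 17.7 and 14.1, and the 240 ug/ml libraries 15.3, 15 and 15. Controls lay above the 60 ug/ml group, and that group above both upper doses, which overlapped each other.

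The log2 changes of CYP1B1 against control were -0.57, -1.02 and -1.14 (SE 0.097), or 0.673, 0.493 and 0.455 times control, with limma adjusted p of 0.00292, 3.76e-05 and 1.39e-05. These changes stood at percentiles 6.92, 3.95 and 3.95 of all tested genes, counted from the most negative. The call held at each dose under all 24 alternatives. At equal library totals the changes were -0.38, -0.67 and -0.72 (adjusted p = 0.0411, 0.000806 and 0.000318). Without the third 60 ug/ml library the change at that dose was -0.49 (adjusted p = 0.0108).

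One transcript carried this signal. CYP1B1-205 held 83.7% to 94.1% of the gene's signal over the libraries and changed by -0.65, -1.10 and -1.20 at the 3 doses (adjusted p = 0.0117, 0.000228 and 9.95e-05). At 60 ug/ml the call of this transcript was lost without the first control (adjusted p = 0.0552) and at equal library totals (-0.46, adjusted p = 0.0654). The gene shares 678 exonic bases with CYP1B1-AS1 on the opposite strand, whose mean was 4.43 in controls and 3.47 at 240 ug/ml, far below that of CYP1B1. The fibroblast marker sum fell over the same doses, with ranges of 114.2 to 216.9 at 60 ug/ml and 66.8 to 76.2 at 120 ug/ml, and its part in the result was not tested. In bulk RNA, fewer cells of a type and less RNA per cell cannot be told apart.

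NFIL3, a bZIP repressor that opposes the PAR bZIP activators at D-box elements, moved both ways. It has 1 transcript and is encoded on chromosome 9 (ENSG00000165030.3, 91409045 to 91423862, minus strand). Controls read 28, 27.1 and 25.8. Libraries at 60 ug/ml read 23.1, 21.2 and 23.9, the 120 ug/ml libraries 25.3, 24.2 and 27.4, and the 240 ug/ml libraries 31.7, 30.7 and 32.4. The 60 ug/ml group lay below the controls, the 120 ug/ml group overlapped them and the 240 ug/ml group lay above them.

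The log2 changes of NFIL3 were -0.24, -0.071 and 0.22 (SE 0.072), with limma adjusted p of 0.0404, 0.472 and 0.0275. The call at 60 ug/ml was lost in 14 of 24 alternatives, among them equal totals (-0.043) and GC and length trends subtracted (-0.18, adjusted p = 0.0645). It was lost without any 1 control, the first or second 60 ug/ml library, the first 120 ug/ml library, or the first 240 ug/ml library or the third, with adjusted p from 0.0521 to 0.134. The rise at 240 ug/ml was lost without the second control, the third control, the first treated library or the third (adjusted p = 0.0632, 0.0909, 0.0602 and 0.0836). At equal totals it was larger (0.64, adjusted p = 0.000143), and the change at 120 ug/ml became a rise of 0.28 (adjusted p = 0.0258).

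**Figure D3:**
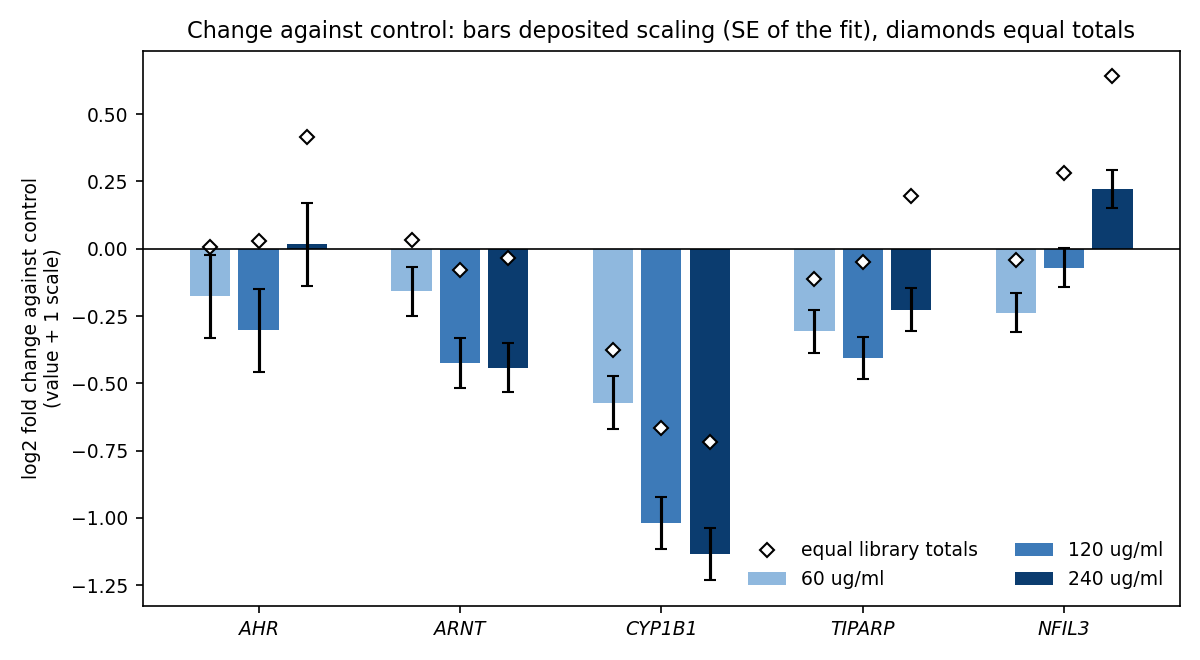
Log2 fold change against control (vertical axis, on the value + 1 scale) of the 5 tested members at 60, 120 and 240 ug/ml DHA, as bars with the SE of the fit; diamonds give the same change at equal library totals. CYP1B1 is below 0 at every dose on both scalings, while TIPARP at 240 ug/ml is at -0.23 as deposited and at 0.19 with equal totals.

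Counted over the members, 0 were called higher and 3 lower at 60 ug/ml (CYP1B1, TIPARP and NFIL3), where 8.89% and 10.0% of all tested genes were. At 120 ug/ml 0 were higher and 3 lower (CYP1B1, TIPARP and ARNT), against 15.9% and 20.8%. At 240 ug/ml 1 was higher (NFIL3) and 3 lower (CYP1B1, ARNT and TIPARP), against 19.7% and 23.5%. The median log2 change of the 5 was -0.24, -0.41 and -0.23 at the 3 doses, and that of all tested genes lay near 0, as given above. These comparisons share the control libraries, and the members were chosen with earlier results of these data known. Single transcripts were tested over 54340 transcripts, of which 3.69%, 15.3% and 20.7% were called at the 3 doses. The members' tested transcripts were AHR-201, AHR-205, ARNT-202, ARNT-208, ARNT-212, CYP1B1-205, CYP1B1-206, TIPARP-201, TIPARP-206, TIPARP-207 and NFIL3-201. Among these, 1 was called at 60 ug/ml (CYP1B1-205), and 2 at each upper dose (CYP1B1-205 and ARNT-202). Beside the shares of all transcripts these counts are descriptions only.

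Between neighbouring doses only CYP1B1 was called. From 60 to 120 ug/ml it fell by 0.45 on the log2 scale (SE 0.097, limma adjusted p = 0.0422), with 0 members higher and 1 lower, against 0.536% and 1.61% of all tested genes. That call was lost in 13 of 24 alternatives, with adjusted p up to 0.183, among them equal library totals (-0.29) and those without any 1 control, any 1 library at 120 ug/ml, the first or second at 60 ug/ml or the third at 240 ug/ml. Without the third 60 ug/ml library, ARNT was called as well (-0.37, adjusted p = 0.014). From 120 to 240 ug/ml no member and 0% of genes were called by limma, although 1331 of 16789 genes had an unadjusted p under 0.05. NFIL3 read higher in all 3 libraries at 240 than at 120 ug/ml (0.29, adjusted p = 0.537).

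The order of the members' levels changed with dose. Levels are set beside each other here on the reading that the values are per transcript length. In controls the order was CYP1B1, TIPARP, NFIL3, ARNT and AHR, with means of 34.4 ± 0.987, 31.7 ± 0.794, 27.0 ± 1.11, 18.3 ± 0.751 and 10.9 ± 1.5 (SD, n = 3), and no neighbours overlapped. At 60 ug/ml TIPARP led, followed by CYP1B1 and NFIL3, which overlapped at 22.9 ± 2.27 and 22.7 ± 1.39. At 120 ug/ml NFIL3 and TIPARP led and overlapped (25.6 ± 1.63 and 23.7 ± 1.51), followed by CYP1B1 at 16.5 ± 2.11. At 240 ug/ml the order was NFIL3, TIPARP, CYP1B1, ARNT and AHR, at 31.6 ± 0.854, 27.0 ± 2.56, 15.1 ± 0.173, 13.2 ± 0.651 and 11.0 ± 1.1, and no neighbours overlapped. AHRR and CYP1A1 were last at every dose.

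The genes with the most similar course were sought among 10894 genes with a mean of at least 5, as a description over 12 libraries that share their group structure. For CYP1B1 these were MFAP2 (Pearson r = 0.989), TP53INP1 (0.989) and MXRA8 (0.988). For ARNT they were TRAFD1 (0.977), TSPAN12 (0.969) and NEURL3 (0.966). For TIPARP they were PTPRK (0.965), SNAI2 (0.957) and ATG4A (0.955). For NFIL3 they were PCNX4 (0.967), FCF1 (0.94) and TOMM20 (0.935), and for AHR, WDCP (0.879), SCNM1 (0.876) and CMAS (0.874). Among the members, ARNT and CYP1B1 had r = 0.925, whereas AHR and CYP1B1 had r = 0.0903.

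Genes around the pathway were counted in 7 lists (the plot of related lists at 240 ug/ml), beside which the median log2 change of all tested genes at that dose was -0.028, with 19.7% of them higher and 23.5% lower. At equal library totals 7250 of the 16789 genes were higher and 1497 lower, and each list's counts at equal totals are read against these. Of 12 receptor chaperones and coactivators, 6 rose and 2 fell at 240 ug/ml, with a median of 0.28. NRIP1, a coregulator of nuclear receptors, rose from 35.2 ± 1.04 to 62.5 ± 6.17 (SD, n = 3; log2 change 0.81, limma adjusted p = 8.48e-05). The coactivator NCOA3 rose by 0.75 (adjusted p = 6.56e-05). HSP90AA1, an HSP90 gene, and PTGES3, which encodes p23, rose by 0.67 and 0.56 (adjusted p = 0.00412 and 0.00219). The ubiquitin ligase scaffold CUL4B fell by 0.29 (adjusted p = 0.0449). At equal library totals 10 rose and 0 fell, with CUL4B at 0.12. The CUL4B call was also lost without 8 single libraries: the second control, the third, and the first and second of each DHA group (adjusted p from 0.0505 to 0.165).

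Genes reported elsewhere as receptor targets had called members in both directions. Of 19 listed, 10 were tested, and 4 rose and 2 fell at 240 ug/ml, with a median of 0.15. CYP1A2 had a mean of at most 0.3 in any group, and ALDH3A1 was listed at 0 in every library. NQO1, a quinone reductase also driven by NRF2, had means of 116 and 151 in control and at 240 ug/ml, which did not pass the test (0.36, adjusted p = 0.0854). EREG, an EGF receptor ligand, rose from 20.9 ± 0.751 to 73.0 ± 6.4 (1.76, adjusted p = 2.68e-05). SLC7A5, an amino acid transporter that also carries kynurenine, rose from 22.3 ± 4.4 to 154 ± 9.44 (2.75, adjusted p = 9.44e-06). VAV3, a guanine nucleotide exchange factor, fell by 1.37 (adjusted p = 3.35e-05). UGT1A6, a glucuronosyltransferase, fell by 1.29 from a mean of 1.77, and since UGT1A genes share exons its value is uncertain. It reached the test's minimum of 1 in the controls alone, the group where it was high. Its p-value is therefore not given, and its place among the 2 that fell is a description only. At equal totals 7 genes of the list rose and 2 fell.

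Kynurenine, made from tryptophan, is a ligand of the receptor, and the enzymes that start its synthesis were near 0. IDO1, IDO2 and TDO2 had means of at most 0.067 in any group. Of the 12 listed genes of this pathway 8 were tested, and 1 rose and 4 fell at 240 ug/ml, with a median of -0.39. IL4I1, an amino acid oxidase whose products include receptor ligands, rose from 12.6 ± 1.01 in controls to 27.2 ± 3.23, 25.1 ± 0.757 and 21.1 ± 1.51 at 60, 120 and 240 ug/ml (log2 changes 1.05, 0.95 and 0.70, adjusted p = 0.000185, 5.11e-05 and 0.000184). KMO, which hydroxylates kynurenine, fell from 4.2 ± 0.755 to 0.767 ± 0.462 (-1.58, adjusted p = 0.000433), and QPRT, at the NAD end of the pathway, from 115 ± 10.6 to 68.1 ± 5.42 (-0.75, adjusted p = 0.000107). KYAT3, a kynurenine aminotransferase, fell by 0.44 (adjusted p = 0.00106), a call lost at equal library totals (-0.024, adjusted p = 0.842). At equal totals 3 genes of the list rose and 2 fell.

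Other bHLH-PAS factors, the family of AHR and ARNT, split. Of 13 listed, 9 were tested, and 3 rose and 3 fell at 240 ug/ml, with a median of -0.12. HIF1A, which pairs with ARNT in hypoxia, rose from 305 ± 23.6 to 538 ± 63.1 (0.81, adjusted p = 0.000116). CLOCK, a core clock activator, rose by 0.71 (adjusted p = 0.000278). ARNT2, the close relative of ARNT, fell by 0.43 from a mean of 3.2 (adjusted p = 0.0302), and SIM1 by 0.90 from 2.7 (adjusted p = 0.000782). At equal totals 4 rose and 1 fell. The ARNT2 call was lost there (-0.12) and without the second control, the third control, the first 240 ug/ml library or the third (adjusted p from 0.0618 to 0.117).

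Of 12 PAR bZIP and clock factors, which share target elements or feedback loops with NFIL3, 6 rose and 1 fell at 240 ug/ml, with a median of 0.26. DBP, a PAR bZIP activator at D-box elements, fell from 11.5 ± 2.48 to 3.6 ± 0.4 (-1.42, adjusted p = 0.000116), and its change at 60 ug/ml was -0.24 (adjusted p = 0.394). NFIL3 rose at 240 ug/ml. At 120 ug/ml DBP read 4.8, 6 and 4.1. NFIL3 was not called at that dose as deposited (-0.071, limma adjusted p = 0.472) and was called higher at equal totals (0.28, adjusted p = 0.0258). A link between the 2 genes was not tested. The other PAR bZIP genes, TEF and HLF, changed by -0.082 and -0.42 and did not pass (adjusted p = 0.616 and 0.14). NR1D1, a nuclear receptor that represses clock genes, rose by 0.73 (adjusted p = 0.00448). The clock repressors BHLHE40 and BHLHE41 rose by 0.78 and 0.30 (adjusted p = 0.00016 and 0.0374). At equal totals 8 rose and 1 fell. The BHLHE41 call was lost without the second control, the third control, the second 240 ug/ml library or the third (adjusted p from 0.0794 to 0.125), and with GC and length trends subtracted (0.22, adjusted p = 0.107).

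TIPARP's relatives were also mixed. Of 12 listed mono-ADP-ribosyl PARPs and macrodomain hydrolases 11 were tested, and 1 rose and 3 fell at 240 ug/ml, with a median of -0.091. PARP12 rose from 28.7 ± 0.866 to 36.1 ± 0.709 (0.32, adjusted p = 0.00279), a call lost when only protein-coding transcripts were summed (0.19, adjusted p = 0.0752). PARP3, PARP16 and the hydrolase MACROD1 fell by 0.72, 0.52 and 0.69 (adjusted p = 0.00135, 0.00819 and 0.0255). At equal totals 4 rose and 0 fell, and PARP3, PARP16 and MACROD1 were at -0.30, -0.16 and -0.28. The MACROD1 call was also lost without the first control, the second control, the second 240 ug/ml library or the third (adjusted p from 0.0755 to 0.0879).

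Of 7 genes that serve or follow CYP1 oxidation, all tested, 1 rose and 5 fell at 240 ug/ml, with a median of -0.59. POR, which passes electrons to the cytochromes P450, rose from 32.2 ± 2.41 to 57.8 ± 4.4 (0.82, adjusted p = 6.02e-05). CYB5A, an alternative electron donor, fell from 126 ± 5.61 to 53.6 ± 14.2 (-1.25, adjusted p = 0.000204). Among enzymes that clear reactive products, GSTP1 fell from 1594 ± 61.2 to 598 ± 155 (-1.45, adjusted p = 7.16e-05) and the epoxide hydrolase EPHX1 by 0.59 (adjusted p = 0.000176). The sulfotransferase SULT1A1 fell by 0.79 (adjusted p = 0.000683). At equal totals 2 rose and 3 fell.

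**Figure D4:**
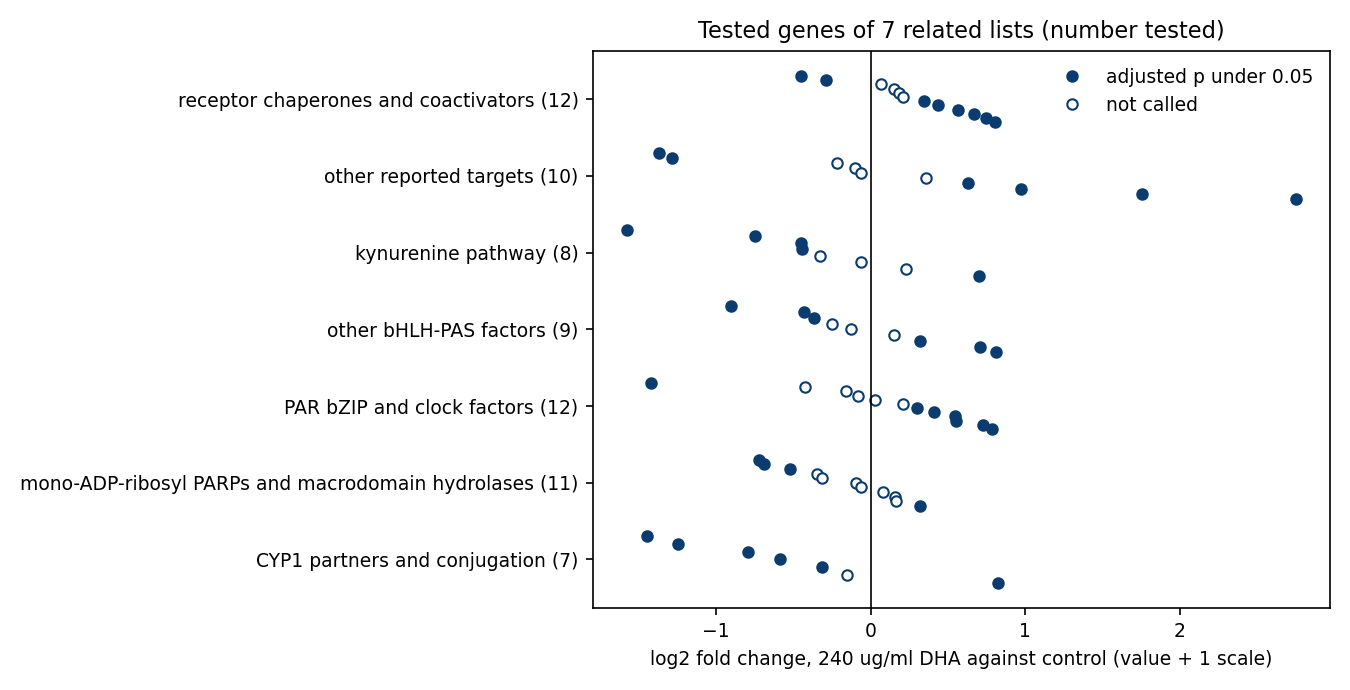
Log2 fold change at 240 ug/ml DHA against control (horizontal axis, on the value + 1 scale) of each tested gene of the 7 related lists, with filled points for genes at an adjusted p under 0.05. Every list has called genes on both sides of 0; the highest point is SLC7A5 at 2.75 and the lowest KMO at -1.58.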

How the data were processed

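The deposited table gives 1 value per transcript and library as a normalized signal; no source used here names the authors' quantifier, unit, strand setting or annotation release. The genome build is GRCh38.p14, per the submitters' processing notes. Library totals have a geometric mean of 999925, as TPM divided by size factors would. Of 267165 transcripts, 202305 (75.7%) matched GENCODE 29 and were summed into 57527 genes, with 93.8% to 94.7% of each library's total. Genes that reached a signal of 1 in 3 or more libraries were tested on log2(value + 1) with limma 3.58.1 (trend, R 4.3.3), all 12 libraries in 1 fit with 1 mean per group, two-sided, with p-values adjusted by Benjamini-Hochberg over 16789 genes and called under 0.05. Fold changes are on the log2(value + 1) scale, which understates changes of low genes. Single transcripts were tested the same way. Tested on simulated data (240 ug/ml against control, 16013 genes, 50 changed per size), the fit found 58%, 88%, 100% and 100% of log2 changes of 0.5, 1, 2 and 3, and 8 of 181 calls were false. The share of genes changed there was far smaller than the share called here at 240 ug/ml, so these rates may not hold for these data.

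The 7 members and the related lists were chosen with earlier results of these data known. The members are named always, and from each list the called genes with the most positive and most negative changes at 240 ug/ml, up to 4, plus those a role calls for. A few genes counted in the lists are not reported here by name. Genes of similar course are the 3 with the highest r. Alternatives covered scaling, pseudocounts of 0.1 and 5, filters, the spread model, the replicate number as a block, GC and length trends, coding transcripts only, the 2 groups alone and each library left out. Promoters come from RefSeq (GRCh38.p14).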

Additional observations from a re-analysis of the deposited data

How the results depend on the processing

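Of the settings tried, equal library totals moved most results: the genes called became 2693 higher and 661 lower at 60 ug/ml (from 1492 and 1685), 6051 and 1362 at 120 ug/ml (from 2670 and 3485) and 7250 and 1497 at 240 ug/ml (from 3306 and 3938). At equal totals, members called lower went from 3 to 1 at each of 60, 120 and 240 ug/ml, members called higher from 0 to 1 at 120 ug/ml and from 1 to 2 at 240 ug/ml, those called lower from 60 to 120 ug/ml from 1 to 0, those differing among the 4 groups from 4 to 2, and called transcripts of members from 1 to 0 at 60 ug/ml and from 2 to 1 at 120 ug/ml. Changes that turned direction at equal totals were AHR at 60 and 120 ug/ml (0.0072 and 0.029), ARNT at 60 ug/ml (0.032), NFIL3 at 120 ug/ml (0.28), TIPARP and CUL4B at 240 ug/ml (0.19 and 0.12), AHR (0.022) and TIPARP (0.060) from 60 to 120 ug/ml, ARNT from 120 to 240 ug/ml (0.045) and transcript TIPARP-201 at 120 and 240 ug/ml (0.027 and 0.15).

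With only protein-coding transcripts summed, AHR turned to 0.11 at 60 ug/ml, 0.21 at 120 ug/ml and 0.11 from 60 to 120 ug/ml, ARNT turned to 0.015 from 120 to 240 ug/ml, and 2 members in place of 1 were called higher at 240 ug/ml. AHR at 240 ug/ml turned to -0.19 with GC and length trends subtracted, with and without the replicate block. The member called lower from 60 to 120 ug/ml was lost (0) with no filter on low values, with no trend in the spread model and with the 2 groups alone. With no filter, 1 transcript of the members in place of 2 was called at 240 ug/ml. The cause of these shifts was not tested.

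Leaving out 1 library at a time gave 1 to 3 members lower at 60 ug/ml, 3 at 120 ug/ml and 2 to 3 at 240 ug/ml, 0 to 1 higher at 240 ug/ml, 0 to 2 lower from 60 to 120 ug/ml, and 4 differing among the groups. Called transcripts ran from 0 to 1, 1 to 2 and 1 to 3 at the 3 doses. AHR at 240 ug/ml ran from -0.075 to 0.11, negative without the second control (-0.075) or the third treated library (-0.057). AHR from 60 to 120 ug/ml ran from -0.27 to 0.0094, positive without the third 60 ug/ml library. ARNT from 120 to 240 ug/ml ran from -0.051 to 0.015, positive without the first 120 ug/ml (0.013) or the second 240 ug/ml library (0.015). AHR-201 at 60 ug/ml ran from -0.019 to 0.23, negative without the third treated library, and AHR-205 at 240 ug/ml from -0.81 to 0.0011, positive without the second. Genes called at 60 ug/ml went down to 923 higher and 954 lower (both without the first control). From 60 to 120 ug/ml the alternatives gave 0 to 1042 genes higher and 0 to 1313 lower, with the upper counts without the third 60 ug/ml library. From 120 to 240 ug/ml, 0 to 2 genes were called higher and 0 to 4 lower under the alternatives.

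Replicate numbers were not taken as pairs, since no label says what they mark. None of the 5 comparisons fitted, which leave out 240 against 60 ug/ml, had every same-numbered pair of deviations correlated above 0.1. These correlations ran from -0.0247 (control and 240 ug/ml) to 0.236 (120 and 240 ug/ml). The deviations of a group sum to 0, so the mean correlation with the other numbers is nearly fixed by these values and adds nothing to them. What the libraries of 1 number share was not tested. A library correlated best with its own number, out of 3 numbers, in 23 of 36 pairings, and the libraries numbered 3 did so in 3 of 3 groups each. With the number as a block, 3 members fell at 60 ug/ml, 1 rose and 3 fell at 240 ug/ml, AHR was called lower at 120 ug/ml (-0.30, adjusted p = 0.0463), as were transcript AHR-205 at 120 ug/ml (adjusted p = 0.0494) and, higher, AHR-201 at 240 ug/ml (0.0372), and 699 and 1086 genes were called from 60 to 120 ug/ml in place of 90 and 270. Whether reads limit CYP1A1 and AHRR cannot be told without read depth.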
